A study of Mus musculus with 4 samples.

Results

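Noncoding hosts of small nucleolar RNAs (snoRNAs) were described in 2 immunopurified (IP) libraries and 2 input libraries of mouse cerebral cortex. They were the gene names of the Snhg series other than Snhg11, with Gas5 and Zfas1, that held at least 10 counts in at least 2 libraries. By this rule 11 of the 32531 gene names in the count files were members: Gas5, Snhg1, Snhg3, Snhg4, Snhg5, Snhg6, Snhg7, Snhg10, Snhg12, Snhg14 and Snhg18. Snhg8 and Snhg9 were listed but stayed under the rule, with at most 3 counts in an IP library and at most 10 in an input library, and no row carried the name Zfas1. All 11 members passed the filter on low counts and were tested, and each reached 10 counts in all 4 libraries.

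The IP libraries held RNA bound to EGFP-tagged ribosomes, and the input libraries total RNA, from cortex of adult mice of the Cbln1-TRAP line NIDA030. In these mice the tagged ribosomal protein EGFP-Rpl10a is driven by Cbln1 regulatory sequence, and all 4 libraries came from that genotype. The tag is thus expected only in cells where that sequence is active, while input holds RNA of all cells of the tissue. The contrast therefore joins RNA fraction and cells sampled, which cannot be told apart here, and it holds no untagged control. Libraries are named by the replicate numbers 2 and 4 of the labels, which leave unsaid whether each number is its own animal. The p-values therefore cover variation among 4 libraries, which may be technical. Both IP libraries were run on one lane and both input libraries on another, so lane and fraction cannot be told apart.

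Gene counts summed to 41334423 and 47567384 in the IP libraries and to 41385301 and 39750468 in the input libraries. Neuronal markers of the tissue were abundant, with a summed level of 30778 to 32813 CPM (counts scaled to a common library size) in IP against 13686 to 14114 CPM in input for 6 general neuronal genes, 5 of which rose. Of 6 oligodendrocyte markers 2 rose and 4 fell (1233 to 1261 CPM in IP and 1506 to 1599 CPM in input). Of 6 astrocyte markers 3 rose and 1 fell (975 to 1072 CPM in IP and 712 to 720 CPM in input). No defining marker of either glial list was at 0, and the part of cell mixture in the values below was not tested. In bulk RNA, fewer cells of a type and less RNA per cell cannot be told apart.

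A snoRNA host is transcribed by RNA polymerase II and spliced. The introns release snoRNAs, which guide ribose methylation (the box C/D class) or pseudouridylation (the box H/ACA class) of ribosomal and spliceosomal RNA. In the noncoding hosts the joined exons as a rule carry no long reading frame. In mouse cells the exon RNA of Gas5 and Snhg1 has been found on ribosomes and degraded by nonsense-mediated decay. That pathway removes messages with an early stop codon. Host genes often begin transcription within a run of pyrimidines, as messages of ribosomal proteins do (the terminal oligopyrimidine start), which couples translation of those messages to growth signals.

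The intronic snoRNAs are shown because they define the group. In the GENCODE vM21 annotation on GRCm38, every one of the snoRNAs annotated inside Gas5 (9 names), Snhg1 (8), Snhg12 (4), Snhg3 (2), Snhg5 (2), Snhg6 (1), Snhg10 (1) and Snhg18 (1) lay in an intron of the transcript with the most exons. Of the 30 snoRNA entries in the members outside Snhg4 and Snhg14, 18 held both TGATGA (box C) within their first 25 bases and CTGA (box D) within their last 25 bases on the sense strand. Of the rest, 7 had the letters ACA near their end and 5 matched neither pattern, and none of these is printed. In Snhg12 only 1 of the 4 entries had both boxes. Capitals mark boxes C and D in 1 example from each of 5 hosts, and in the second copy of the Snhg5 pair. Sequences are given as DNA letters from the GENCODE transcripts.
Snord47 of Gas5 (chr1:161038082-161038158, plus strand): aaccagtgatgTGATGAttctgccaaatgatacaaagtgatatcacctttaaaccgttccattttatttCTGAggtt
Snord99 of Snhg12 (chr4:132310691-132310764, plus strand): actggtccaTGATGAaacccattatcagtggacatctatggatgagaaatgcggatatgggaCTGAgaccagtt
Snord50a of Snhg5 (chr9:88521529-88521600, minus strand): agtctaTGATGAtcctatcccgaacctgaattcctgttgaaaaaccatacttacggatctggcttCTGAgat
Snord50b of Snhg5 (chr9:88521797-88521868, minus strand): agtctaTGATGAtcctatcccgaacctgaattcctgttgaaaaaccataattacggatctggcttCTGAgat
Snord87 of Snhg6 (chr1:9942463-9942549, minus strand): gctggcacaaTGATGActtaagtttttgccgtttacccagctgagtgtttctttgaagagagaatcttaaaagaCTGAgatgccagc
Snord123 of Snhg18 (chr15:32241853-32241923, minus strand): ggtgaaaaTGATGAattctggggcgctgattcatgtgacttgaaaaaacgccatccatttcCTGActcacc

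The annotated starts are shown because some of them carry such a pyrimidine run and others do not. Starts came from RefSeq on GRCm38.p6, from which 10 start entries for 9 members were read. No entry was found for Snhg6, and Snhg4 was left out of the reading. The count below is therefore of the entries read and not of all members, and the shares beside it had no such exclusion. A run was counted where a C followed by at least 4 bases, each C or T, began within 5 bases of the annotated start on the sense strand. Such a run stood at 6 of the 10 entries, against 18.3% of all 32851 promoters of the table, 17.9% of the 11588 of lncRNA genes and 42.3% of the 78 of cytosolic ribosomal protein genes. Among these 6, the run of Snhg3 began 2 bases after the annotated start. That of Snhg10 ended before the start, and neither of them is printed. In the lines below, 20 bases before the start and 30 from it onward are printed with the run in capitals. Snhg1 and Snhg5 are examples without a run by this rule.
Gas5, the second of 2 start entries (chr1:161035146-161035195, plus strand): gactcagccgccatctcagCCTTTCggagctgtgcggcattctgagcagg
Snhg12 (chr4:132308658-132308707, plus strand): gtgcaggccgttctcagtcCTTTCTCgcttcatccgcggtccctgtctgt
Snhg7 (chr2:26640215-26640264, minus strand): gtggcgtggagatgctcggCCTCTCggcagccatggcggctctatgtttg
Snhg18 (chr15:32244633-32244682, minus strand): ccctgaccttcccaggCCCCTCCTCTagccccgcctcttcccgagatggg
Snhg1 (chr19:8723467-8723516, plus strand): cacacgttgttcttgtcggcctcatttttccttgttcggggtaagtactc
Snhg5 (chr9:88522868-88522917, minus strand): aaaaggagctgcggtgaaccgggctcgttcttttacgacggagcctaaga
These matches describe letters at annotated starts, and where transcription began in cortex was not measured.

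As a group the host RNAs were lower in the IP libraries than in the input libraries. Of the 11 members, 9 fell in IP, 0 rose and 2 did not pass the threshold at 0.05. The p-values came from the quasi-likelihood test of edgeR and were adjusted by Benjamini-Hochberg over 16600 genes. With DESeq2 the same 9 fell and 0 rose. At an unadjusted p under 0.05 the same 9 members passed, all of them lower. Of all genes tested, 22.4% fell and 23.4% rose (45.8% in either direction), and of 14295 protein-coding genes 17.5% fell and 26.8% rose (44.4% in either direction). Of 668 lncRNA genes tested 50.6% fell and 0.599% rose (51.2% in either direction). With a mean of 1 to 100 CPM, 64.6% of 328 lncRNA genes fell and 0.915% rose, against 21.7% and 24.4% of all genes in that range. The members had a median log2 fold change (IP over input) of -1.06, against -1.11 for the lncRNA genes, 0.06 for protein-coding genes and -0.04 for all genes tested. The median of the hosts thus lay close to that of other long noncoding RNAs and far below that of messages.

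All members together took 0.00582% (Wilson 95% interval 0.00560 to 0.00606%) and 0.00603% (0.00581 to 0.00625%) of the gene counts in IP 2 and IP 4. In input 2 and input 4 they took 0.0201% (0.0196 to 0.0205%) and 0.0172% (0.0168 to 0.0176%). These intervals cover counting error only, and both IP libraries lay below both input libraries. With 2 libraries against 2, an exact two-sided permutation test cannot give a p below 0.333, so the sum is given without one.

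**Figure D1:**
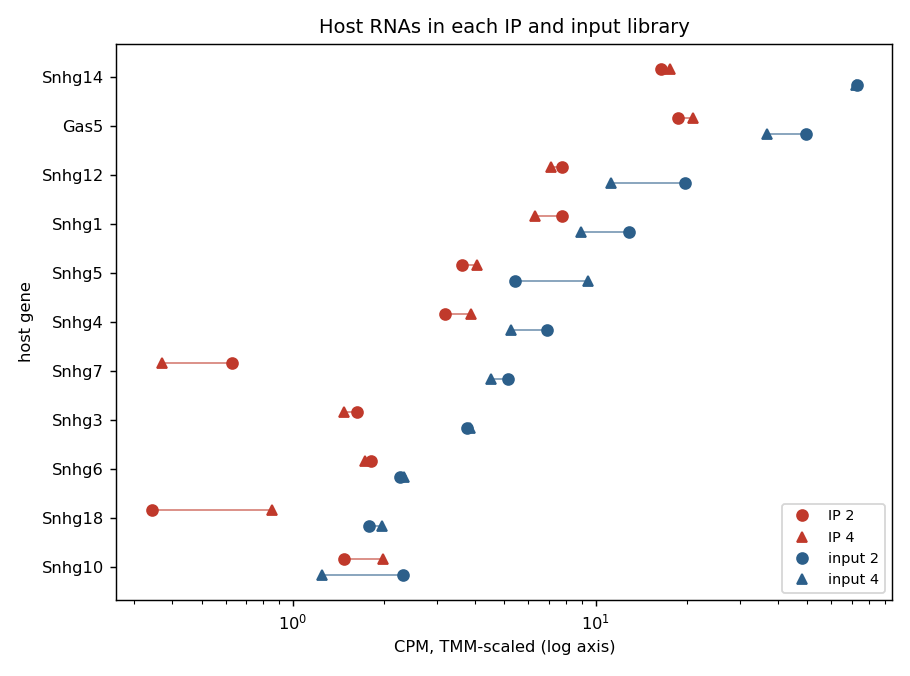
CPM of each of the 11 host RNAs (log axis) in the 2 IP libraries (red, upper row of each gene) and the 2 input libraries (blue, lower row), with circles for replicate 2 and triangles for replicate 4. For 10 of the 11 hosts both IP points lie left of both input points, and for Snhg10 they overlap.

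Both IP libraries lay below both input libraries in 10 of the 11 members, against 37.8% of all genes tested, 31.8% of protein-coding genes and 75.3% of lncRNA genes. Snhg10 was the exception. At least 2-fold lower and past the threshold were 6 members, Gas5, Snhg3, Snhg7, Snhg12, Snhg14 and Snhg18, against 10.7% of all genes, 5.12% of protein-coding genes and 40.1% of lncRNA genes.

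Gas5, the growth arrest-specific transcript with 9 snoRNA names in its introns, was the best counted of the small hosts. It stood at 18.7 and 21.0 CPM in IP, against 49.4 and 36.9 CPM in input. These levels came from read counts of 711 and 908 in IP, against 2247 and 1596 in input. The IP libraries were close to each other and both lay well below the lower input library. Gas5 was 2.17-fold lower in IP (log2 fold change -1.12, SE 0.14, 95% interval -1.42 to -0.82, edgeR adjusted p = 4.11e-06). Gas5 (ENSMUSG00000053332.13) lies on the plus strand of chromosome 1, from 161034422 to 161038539. Its transcript with the most exons has 12 exons and 502 bases, and the longest reading frame in it from an ATG to a stop codon has 39 codons.

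Snhg1, whose introns hold Snord22 and 7 further snoRNA entries, 6 of these 8 with both boxes C and D, stood at 7.76 and 6.32 CPM in IP, against 12.9 and 8.97 CPM in input. The groups did not overlap, but input 4 lay nearer to IP 2 than to input 2. The RNA was 1.55-fold lower (log2 fold change -0.64, SE 0.21, edgeR adjusted p = 0.0169). This call rested on single libraries: the log2 fold change was -0.34 without input 2 (edgeR adjusted p = 0.313) and -0.48 without IP 4 (adjusted p = 0.0754). Snhg1 (ENSMUSG00000108414.1) lies on the plus strand of chromosome 19, from 8723475 to 8726443, and its spliced form of 605 bases has a longest frame of 41 codons.

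Snhg12, with Snora16a, Snora44, Snora61 and Snord99 in its introns, stood at 7.74 and 7.10 CPM in IP, against 19.7 and 11.3 CPM in input. IP values were tight and input values spread widely, with every IP value below every input value. It was 2.09-fold lower (log2 fold change -1.06, SE 0.22, edgeR adjusted p = 0.00054). Without input 2 the log2 fold change was -0.60, smaller by more than 1.5 times, and the call remained. Snhg12 (ENSMUSG00000086290.9) occupies chromosome 4, 132308623 to 132311024, plus strand.

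Snhg5, which carries the pair Snord50a and Snord50b, stood at 3.63 and 4.05 CPM in IP, against 5.43 and 9.40 CPM in input. Here input 4 was the high library, the reverse of Gas5, Snhg1 and Snhg12, where input 2 was higher. It was 1.93-fold lower (log2 fold change -0.95, SE 0.26, edgeR adjusted p = 0.00572), and without input 4 the log2 fold change was -0.49 (adjusted p = 0.249). Snhg5 (ENSMUSG00000097195.9) occupies chromosome 9, 88521050 to 88522929, minus strand.

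Snhg4, which RefSeq places on chromosome 18 from 35553410 to 35558316 around Snora74a, stood at 3.18 and 3.86 CPM in IP, against 6.91 and 5.27 CPM in input. The groups did not overlap, and the difference was 1.73-fold (log2 fold change -0.79, SE 0.25, edgeR adjusted p = 0.0147). The call was lost without IP 2 (log2 fold change -0.64, adjusted p = 0.0595) and without input 2 (-0.57, adjusted p = 0.181). The GENCODE annotation has no gene of this name, and a protein-coding gene model, Gm28285, overlaps the place on the same strand, so reads could be shared.

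Snhg3 and Snhg7, which hold box H/ACA RNAs as Snhg4 and Snhg12 also do, were lower too. Snhg3, which holds Snora73a and Snora73b, RNAs that act in cleavage of the ribosomal RNA precursor, stood at 1.63 and 1.48 CPM in IP, against 3.76 and 3.84 CPM in input. Replicates were close in both groups, and the difference was 2.44-fold (log2 fold change -1.29, SE 0.32, edgeR adjusted p = 0.00284). Snhg3 (ENSMUSG00000085241.7, chromosome 4, 132348014 to 132353686, minus strand) shares exon sequence with Rcc1, which encodes the nucleotide exchange factor of the Ran GTPase. Rcc1 stood at 9.50 and 7.91 CPM in IP, against 6.98 and 6.45 CPM in input, without reaching the threshold (log2 fold change 0.37, edgeR adjusted p = 0.132). So the row of the coding partner did not show the difference seen in Snhg3.

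Snhg7, with Snora17 and Snora43 inside, had the lowest fold change of the members. It was counted 24 and 16 times in IP, against 234 and 196 times in input, or 0.632 and 0.370 CPM in IP and 5.15 and 4.53 CPM in input. That is 9.70-fold lower in IP (log2 fold change -3.28, SE 0.38, 95% interval -4.07 to -2.49, edgeR adjusted p = 1.14e-06). Input replicates were close, and every IP value was far below them. RefSeq places Snhg7 on chromosome 2 from 26637176 to 26640244.

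Snhg14 was the other member far from the rest. It is the imprinted antisense transcript of Ube3a, expressed from the paternal allele in neurons, and its locus is known for long arrays of box C/D snoRNAs. The annotated gene spans 208 snoRNA names, of which 9 lie in introns of the transcript with the most exons. Snhg14 stood at 16.4 and 17.5 CPM in IP, against 73.0 and 72.3 CPM in input, a 4.28-fold difference (log2 fold change -2.10, SE 0.12, 95% interval -2.34 to -1.85, edgeR adjusted p = 1.15e-10). Replicates differed little in either group. Its interval did not overlap those of Gas5, Snhg12, Snhg5, Snhg4, Snhg1, Snhg6 or Snhg10, and that of Snhg7 lay lower than all others except that of Snhg18, which it overlapped.

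Rows of the same imprinted domain were read beside Snhg14. In GENCODE the host (ENSMUSG00000100826.6) occupies chromosome 7, 59307924 to 59975759, minus strand. Its exons overlap Ube3a on the opposite strand, so without a known strand setting their reads cannot be told apart. RefSeq places a start of Snhg14 outside this span, between 60450148 and 60450197 on the same strand. Which model was counted is not known, so whether reads are shared with Ipw, Snurf or Snrpn is not known either. Ube3a, a ubiquitin ligase, stood at 34.3 and 38.2 CPM in IP, against 43.8 and 45.8 CPM in input (log2 fold change -0.30, SE 0.12, edgeR adjusted p = 0.0388). Ipw, a noncoding transcript of the domain, stood at 2.71 and 3.01 CPM in IP, against 11.3 and 10.2 CPM in input (log2 fold change -1.90, SE 0.21, edgeR adjusted p = 8.85e-07). Snurf, a small protein-coding reading frame there, stood at 22.7 and 19.97 CPM in IP, against 18.7 and 18.05 CPM in input, without reaching the threshold (log2 fold change 0.21, edgeR adjusted p = 0.233). Snrpn, which encodes a spliceosomal protein from the same transcript as Snurf, stood at 0.605 and 0.578 CPM in IP, against 1.47 and 2.29 CPM in input, and fell by 1.66 on the log2 scale (SE 0.49, edgeR adjusted p = 0.00858). How counting split the reads of Snurf and Snrpn is not known, so both values are uncertain. These rows other than Snhg14 were chosen after their values were seen.

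Snhg18, host of Snord123, was sparsely counted, at 13 and 37 counts in IP against 81 and 85 counts in input. It stood at 0.342 and 0.856 CPM in IP, against 1.78 and 1.96 CPM in input (log2 fold change -1.63, SE 0.51, edgeR adjusted p = 0.0135). The IP libraries differed from each other by more than the input libraries did, although the groups did not overlap. Without IP 2 the log2 fold change was -1.11 (adjusted p = 0.0851), without input 4 it was -1.55 (adjusted p = 0.0797), and without IP 4 it was -2.43. Snhg18 (ENSMUSG00000096956.2) occupies chromosome 15, 32240565 to 32244662, minus strand.

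For Snhg6 and Snhg10 no call was made. Snhg6 (ENSMUSG00000098234.7, chromosome 1, 9941959 to 9944118, minus strand), host of Snord87, stood at 1.82 and 1.74 CPM in IP, against 2.27 and 2.33 CPM in input (log2 fold change -0.37, 95% interval -1.13 to 0.38, edgeR adjusted p = 0.421). Its values did not overlap between the groups, on 69 and 75 reads in IP, against 103 and 101 reads in input. Mcmdc2, a gene on the opposite strand, overlaps its exons. Snhg10 (ENSMUSG00000113722.1, chromosome 12, 105030617 to 105032279, minus strand) is the host of Scarna13, one of the RNAs that guide modification of spliceosomal RNAs in Cajal bodies. Snhg10 stood at 1.47 and 1.99 CPM in IP, against 2.31 and 1.25 CPM in input. Its groups overlapped (log2 fold change -0.04, 95% interval -0.91 to 0.83, edgeR adjusted p = 0.950), and the sign turned without IP 2 (0.18) and without input 2 (0.48). Both intervals include a 1.5-fold decrease, so a difference of that size is not excluded.

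**Figure D2:**
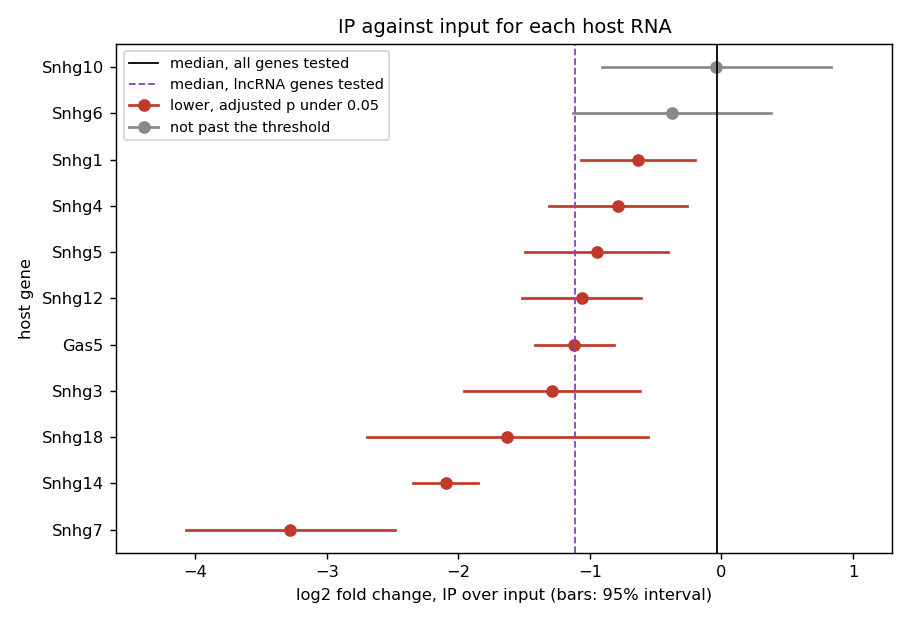
Log2 fold change (IP over input) of each host with its 95% interval, ordered from Snhg10 at -0.04 to Snhg7 at -3.28. Red marks the 9 hosts past the threshold, and the lines are the medians of all genes tested (-0.04) and of the lncRNA genes tested (-1.11), and 7 of the 11 intervals include the lncRNA median.

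Of the 11 intervals, 9 lay below 0 and 2, those of Snhg7 and Snhg14, lay wholly below a log2 fold change of -1. When a decrease beyond a log2 size of 1 was asked for in the test itself, these 2 members passed, as did 4.07% of all genes.

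Levels per length were set side by side for the 8 hosts with a compact GENCODE model, using the length of the transcript with the most exons (332 to 1486 bases). On this scale, CPM per kilobase of transcript, Gas5 was the most abundant in both fractions, at 37.3 and 41.8 in IP and 98.5 and 73.5 in input. Snhg12 (12.8 and 11.7 in IP, 32.6 and 18.6 in input) and Snhg1 (12.8 and 10.4 in IP, 21.3 and 14.8 in input) followed, and their ranges overlapped in both fractions. Snhg3 stood at 4.91 and 4.46 in IP and 11.3 and 11.6 in input, and Snhg5 at 4.65 and 5.18 in IP and 6.96 and 12.04 in input, which again overlap. Snhg6 stood at 3.84 and 3.67 in IP and 4.79 and 4.93 in input. Snhg10 stood at 2.80 and 3.78 in IP and 4.38 and 2.37 in input. Snhg18 was lowest, at 0.230 and 0.576 in IP and 1.20 and 1.32 in input. The annotation used for counting is not given in the sources used here, so these levels hold only as far as its models resemble the ones used.

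The longest ATG reading frames of these 8 spliced hosts ran from 39 to 66 codons, with a median of 51 codons. Snhg14 is not in this range, with a longest frame of 181 codons in a spliced form of 1548 bases. With log2 fold change, frame length had a rank correlation of 0.43 across the 8 (Spearman's rho, n = 8). It was 0.00 with Snhg14 included (n = 9). Spliced length had a rho of -0.19 across the same 8, and of -0.43 with Snhg14. The number of snoRNA names inside the gene had a rho of -0.35 across all 11 members and of -0.19 without Snhg14. The mean input level had a rho of -0.30 across all 11 and of -0.14 without Snhg14, so each of these values rested in part on that gene. The points share the 4 libraries, and all of these are descriptions of few genes.

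Of the 111 rows named as snoRNAs or scaRNAs, 33 held 0 counts in all libraries and 10 held at least 10 counts in 2 libraries. Together they held 102 and 131 counts in IP, against 633 and 407 counts in input. The 13 small RNA rows that lie inside members, Mir1949 of Snhg4 among them, held 2 and 5 counts in IP, against 40 and 29 in input, so the snoRNAs of these hosts could not be compared at this depth. Of the 10 snoRNA and scaRNA rows tested, 2 fell and 0 rose (5 fell with library sizes alone).

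**Figure D3:**
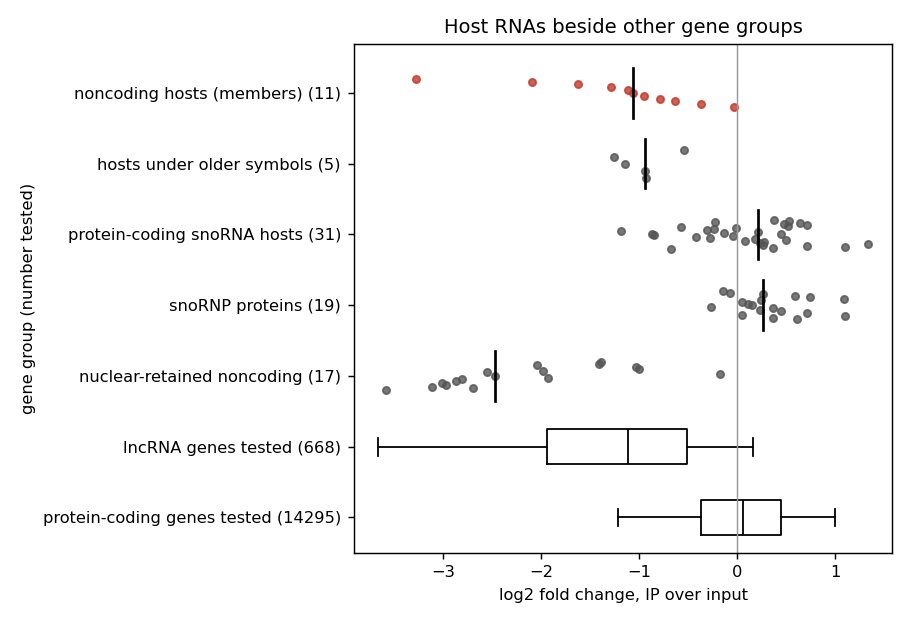
Log2 fold change (IP over input) of the members (red points), of hosts counted under older symbols and of 3 other gene lists (grey points), with black bars at the medians. Boxes give the quartiles of all lncRNA and protein-coding genes tested, with whiskers from the 5th to the 95th percentile, and the members' median of -1.06 lies near that of the lncRNA genes at -1.11.

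Further hosts were counted under symbols that RefSeq lists as older names. Zfas1, whose RNA hosts Snord12 and which the rule names by its current symbol, was counted as 1500012F01Rik at 8.84 and 6.71 CPM in IP, against 17.4 and 12.1 CPM in input. It was 1.90-fold lower (log2 fold change -0.93, SE 0.20, edgeR adjusted p = 0.000886), and its exons overlap Znfx1 on the opposite strand. Snhg17, counted as 9430008C03Rik, fell by 1.25 on the log2 scale (SE 0.28, edgeR adjusted p = 0.00132), and Snhg20, counted as 2810008D09Rik, fell by 1.15 (SE 0.33, edgeR adjusted p = 0.00809). Without IP 2 the call of Snhg20 was lost (2810008D09Rik, log2 fold change -0.81, edgeR adjusted p = 0.0535). Snhg16, counted as 1810032O08Rik, had a log2 fold change of -0.94 (edgeR adjusted p = 0.139) and Snhg15, counted as Gm11974, one of -0.54 (edgeR adjusted p = 0.304). In all 5 both IP libraries lay below both input libraries, against 75.3% of lncRNA genes and 37.8% of all genes tested. With them, 12 of 16 noncoding hosts fell and 0 rose. Among lncRNA genes tested 50.6% fell, or 64.6% with a mean of 1 to 100 CPM, and among all genes tested 22.4% fell.

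Position in the annotation gave a wider set that did not use these names. It held 20 further lncRNA genes tested with a snoRNA inside, which include those 5. Of these 20, 12 fell and 1 rose (median -1.13), against 50.6% and 0.599% of all lncRNA genes tested. The gene that rose was Cct6a, a chaperonin subunit gene that the annotation lists as a processed transcript (log2 fold change 1.02, SE 0.09, edgeR adjusted p = 3.32e-08). The row 2410006H16Rik, with Snord49a, Snord49b and Snord65 in its introns, fell by 0.70 on the log2 scale (SE 0.20, edgeR adjusted p = 0.00838), and 1110038B12Rik, with Snord52, fell by 1.12 (SE 0.26, edgeR adjusted p = 0.00158). This set was chosen after values were seen.

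Protein-coding hosts went both ways. Of 31 protein-coding snoRNA hosts tested from a list, 11 rose and 6 fell (median 0.21, and 6 rose and 7 fell with a median of -0.05 with library sizes alone). Hspa8, a cytosolic chaperone, was 2.52-fold higher, with a mean of 397 ± 17.1 CPM for IP, against 158 ± 7.30 CPM for input (± SD over 2 libraries each, edgeR adjusted p = 1.91e-09). Nop58, a core protein of box C/D particles, was 2.14-fold higher (log2 fold change 1.10, SE 0.13, edgeR adjusted p = 1.24e-06), and Rpl7a, a ribosomal protein, fell by 0.85 on the log2 scale (SE 0.16, edgeR adjusted p = 0.000244). Over the annotation, 251 protein-coding genes with a snoRNA inside were tested. Of these, 70 rose and 55 fell (median 0.07), beside the shares of all protein-coding genes given above. With library sizes alone 42 rose and 94 fell (median -0.18). The difference between coding and noncoding hosts was not tested.

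Proteins that work with the snoRNAs, and the decay pathway of host exons, were read in the same fit. Of 19 snoRNP proteins and assembly factors 8 rose and 0 fell (median 0.26), or 4 rose and 2 fell with a median of 0.00 with library sizes alone. Ruvbl1 and Ruvbl2, ATPases of particle assembly, rose by 1.09 (SE 0.15) and 0.74 (SE 0.14) on the log2 scale. Of 19 nonsense-mediated decay factors 8 rose and 3 fell (median 0.28), or 6 rose and 4 fell with a median of 0.02 with library sizes alone. Smg6, the endonuclease of the pathway, was 2.47-fold higher (SE 0.13 on the log2 scale), and Pnrc2, a decapping cofactor, fell by 0.96 on the log2 scale (SE 0.14).

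The remaining noncoding lists gave the range around the hosts, but they were not free of hosts. Rian (-1.93, SE 0.11) of the nuclear-retained list and Dancr (-2.77, SE 0.74) of the cytoplasmic or mixed list also hold a snoRNA. Dancr held only 2 and 13 counts in IP, against 74 and 38 in input, so its value is uncertain. Rian and Dancr were both among the further lncRNA genes counted above. Of 17 nuclear-retained noncoding RNAs 15 fell and 0 rose, with a median of -2.48. Malat1, Meg3 and Kcnq1ot1 had log2 fold changes of -3.58 (SE 0.17), -3.12 (SE 0.12) and -3.01 (SE 0.18). Of 6 tested noncoding RNAs of cytoplasmic or mixed location 6 fell, with a median of -1.49, among them 1700020I14Rik (-1.49, SE 0.10) and 2900097C17Rik (-0.89, SE 0.10). Of 82 cytosolic ribosomal protein genes and paralogs 4 rose and 21 fell (median -0.22), or 2 rose and 38 fell with a median of -0.48 with library sizes alone; their pseudogene copies make reads hard to place uniquely, so these values are uncertain. Snhg7 (-3.28) and Snhg14 (-2.10) lay on either side of the median of the nuclear-retained list. Both were set apart by their own fold changes, the lowest of the members, so the median of the other 9, -0.95, is descriptive. Where these RNAs lie in the cell was not tested.

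**Figure D4:**
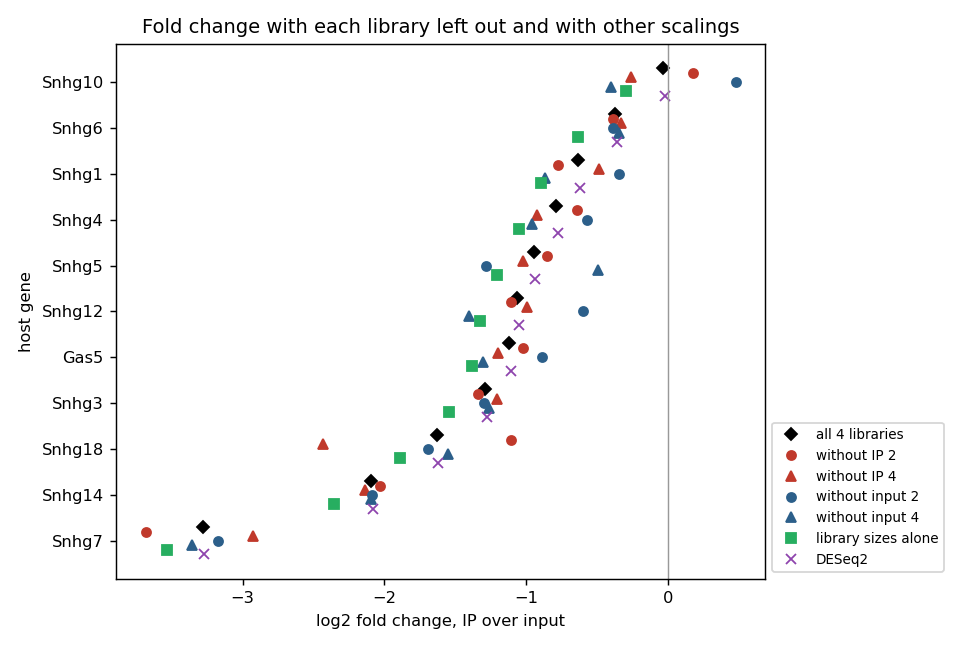
Log2 fold change (IP over input) of each host with all 4 libraries (black diamonds), with each library left out (red for an IP library, blue for an input library), with library sizes alone (green squares) and with DESeq2 (purple crosses). Points of Snhg14, Snhg3 and Snhg6 stay close together, and those of Snhg10 cross 0 without IP 2 (0.18) and without input 2 (0.48).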

How the data were processed

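The deposited files, 1 per library, list unnormalised counts of reads for each gene name. STAR 2.0.0e, HTSeq and the build mm10 are named in the submitters' processing notes. Which annotation, strandedness and kit were used is not stated in these sources. Reads aligned to several places (37.0% and 38.0% of records in IP, 32.1% and 30.7% in input) were not assigned to genes, nor were ambiguous ones (1.54% and 1.54%, against 5.07% and 5.09%), so reads shared by a host and an overlapping gene can be lost. Reads outside features were 7.31% and 7.54% in IP and 14.9% and 13.5% in input. Summary lines and a line named unknown (at most 2 counts) were left out of library sizes.

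The test was that of edgeR 4.0.16 (R 4.3.3) on counts: TMM, filterByExpr (minimum count 10, minimum total 15), quasi-likelihood test of IP against input, no block, Benjamini-Hochberg adjustment over 16600 of 21923 genes with a count, threshold 0.05, two-sided. CPM are on TMM-scaled library sizes, and a floor of 3 counts was 0.0660 to 0.0790 CPM. On simulated data with these 16600 genes, 52% of genes changed 1.5-fold and 74% of those changed 2-fold were recovered (100 each, mean of at least 1 CPM), with 11 false calls among 16065 others. Only those genes were changed there, as many up as down, whereas 45.8% of genes were called in the data. Recovery and false calls in the data may therefore differ. Alternatives are listed in the closing section. Every member was named, and from each list up to 3 called genes that changed most and averaged 5 CPM or more, not all of them printed. Members and lists were chosen with earlier results of these data known. Of 32531 names, 23155 matched GENCODE vM21 (GRCm38) by symbol and 729 by a RefSeq synonym. Figures used matplotlib 3.10.9.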

Additional observations from a re-analysis of the deposited data

How the results depend on the processing

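The 9 calls among the 11 members were kept with DESeq2 1.42.0, DESeq2 size factors, library sizes alone, no filter, at least 50 counts in 2 libraries, thinning to the smallest library, and without Rn45s and 5 genes far higher in IP. Leaving out 1 library gave 7 to 8 members lower and 0 higher, and medians of -1.26 to -0.89; the lone library of a group was then assumed to vary like the others. Tested against a log2 fold change of 1, 2 members were lower, and 675 genes were lower and 172 higher; such a test asks for more than a difference. With library sizes alone the members' median was -1.32 and that of all genes -0.29, with 5910 genes lower and 2151 higher against 3719 and 3886. The share held by the members averaged 0.00659% in IP without Rn45s and the 5 genes, against 0.00592%, since the total shrank. Without Snhg14 it averaged 0.00437% in IP and 0.0107% in input, against 0.0186% in input with it.

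Leaving out 1 library put Snhg10 between -0.40 and 0.48. It turned sign without IP 2 (0.18), without input 2 (0.48) and with the replicate block (0.0064). The labels do not say what the shared numbers 2 and 4 mark, and the deviations of same-numbered libraries correlated at 0.05 across genes. With the number as a block, 9 members were lower (median -1.01), with 4037 genes lower and 4314 higher. Depth limits Snhg8, Snhg9 and the snoRNA rows, whose counts were low in every library. It also limits Snhg18 (13 and 37 counts) and Snhg7 (24 and 16 counts) in IP.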
